A study of Mus musculus with 29 samples.

Results

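This comparison asked how the brain of mice without T and B cells responded to a stroke. It set 3 stroked Rag2-/- mice against 3 non-stroked Rag2-/- mice, which were chosen from the 29 samples of the series by their genotype and treatment labels alone. The series placed a large photothrombotic stroke, in which light clots the vessels under the illuminated skull, over the right sensorimotor cortex of immunodeficient and wildtype (WT) mice and sequenced the polyA RNA of dissected brain tissue 21 days later. The mice were 3 months old and of both sexes, and the non-stroked Rag2-/- mice carried the same deletion as the stroked ones. Rag2-/- and WT mice had a C57BL/6 background, while the NSG mice used below for comparison had a NOD background and lack NK cells in addition to T and B cells. The labels name the tissue only as brain, and the study describes its non-stroked samples both as contralesional tissue and as tissue of naïve mice, so the group is called non-stroked here. Below, before and after stroke, rose and fell compare the non-stroked and stroked groups and mean no time course.

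Rag2 is one of the enzymes that cut DNA for V(D)J recombination, the joining of gene segments that gives T and B cells their receptors. Without it both lineages stop at an early stage, whereas microglia, macrophages, neutrophils and NK or other innate lymphoid cells still form. After a stroke, microglia and incoming macrophages clear dead tissue and myelin, astrocytes around the core become reactive and wall it off, and fibroblasts fill it with collagen.

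The 3 non-stroked libraries held 33504722 to 36880024 counts and the 3 stroked libraries 32507506 to 36182746 over the same 25746 genes, so 1 count was worth about the same in both groups. Rag2 itself had 0 counts in all 6 mice, but it also had 0 to 2 counts in WT mice and therefore checked little. B230118H07Rik, the gene whose span holds Rag2, had 2, 3 and 0 counts in non-stroked mice 1, 2 and 4 and 2, 2 and 4 in stroked mice 1, 3 and 4 (mice are given in this order throughout), against 376 to 627 counts in WT and 504 to 1241 in NSG mice. Ddx3y, a Y-linked gene, was at 0 to 0.0574 CPM (counts scaled to a common library total) in non-stroked mice 1 and 2 and stroked mouse 1 and at 38.9 to 48.9 CPM in the other 3, so the sexes were not balanced. Stroked mouse 1 stood apart in a second way: 15 choroid plexus genes summed to 370.2 CPM in it, against 14.8 and 12.1 CPM in stroked mice 3 and 4 and 9.40 to 11.1 CPM in the non-stroked mice. None of the 15 was called with edgeR, where all 15 had an unadjusted p below 0.05, and 14 were called with DESeq2. Leaving out stroked mouse 3 or 4 gave 10 and 9 calls, and leaving out stroked mouse 1 gave 0. Their part in the results below was not tested, but the values without this mouse are given wherever they move a result. Each library is called a mouse here, but the labels tie no library to an animal. If non-stroked tissue came from the other hemisphere, libraries may share animals, and for NSG mice the study lists fewer sequenced animals than there are libraries. The libraries were fitted as independent, so the p-values measure the spread between these samples, and in bulk tissue fewer cells of a type and less RNA per cell cannot be told apart.

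Of the genes that changed by more than the fold minimum after stroke in Rag2-/- mice, almost all rose. Of 17031 genes tested, 718 (4.22%) were called higher and 19 (0.112%) lower in stroked than in non-stroked mice, by edgeR's quasi-likelihood test, which needed a log2 fold change of more than 1 in size and a p, adjusted after Benjamini and Hochberg, of less than 0.05. Of the genes called higher, 448 rose by 1 to 2 on the log2 scale, 197 by 2 to 4 and 73 by more than 4. The 3 stroked mice were above all 3 non-stroked mice for 715 of the 718 and below them for all 19 of the lower genes, where over all genes tested the groups were apart in this way for 18.8% upwards and 16.9% downwards. The median log2 fold change of all genes was -0.0033. Without the fold minimum, 1142 genes were higher and 260 lower at the same adjusted p. The number of genes called higher was 373 without stroked mouse 1 and 434, 455 and 442 without non-stroked mouse 1, 2 or 4, and the number called lower was 8 without stroked mouse 1, 6 without non-stroked mouse 2 and 38 without stroked mouse 4.

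**Figure D1:**
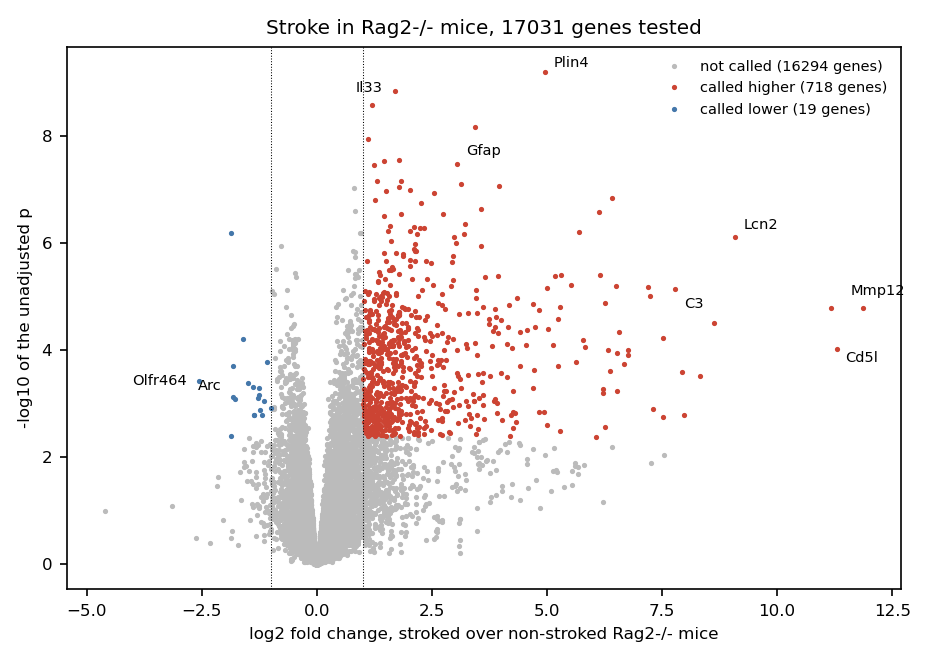
Each point is 1 of the 17031 genes tested, with the log2 fold change of stroked over non-stroked Rag2-/- mice on the x axis and minus the log10 of the unadjusted p on the y axis; dotted lines mark log2 fold changes of -1 and 1. The 718 genes called higher (red) reach a log2 fold change of 11.86 at Mmp12, whereas the 19 called lower (blue) end at -2.57.

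The genes with the largest rise are known mostly from phagocytes, reactive astrocytes and the breakdown of matrix. Mmp12, the elastase of macrophages, had 0 counts in each non-stroked mouse and 16.8, 9.73 and 16 CPM in the stroked mice, at least 157-fold over a floor of 3 counts per library (adjusted p = 0.00178). Cd5l, a protein secreted by tissue macrophages, also had no count before stroke and reached 5.71, 13.8 and 9.38 CPM (at least 107-fold, adjusted p = 0.00439). Atp6v0d2, a subunit of the proton pump that acidifies lysosomes, went from 0 counts to 9.78, 8.01 and 8.43 CPM (at least 96.8-fold, adjusted p = 0.00178). For all 3 genes every stroked mouse was far above every non-stroked mouse.

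Lcn2, an iron-binding acute-phase protein made by reactive astrocytes, was at 0.0566, 0.0304 and 0.127 CPM in non-stroked and 41.6, 21.3 and 57.8 CPM in stroked mice (log2 fold change 9.08, SE 1.40, adjusted p = 0.000317). C3, the central component of complement, was at 0.283, 0.182 and 0.381 CPM and 70.2, 45.8 and 73.1 CPM (log2 fold change 7.79, SE 1.39, adjusted p = 0.0012). Both genes were lowest in stroked mouse 3, and neither group overlapped the other. Clec4d, a C-type lectin receptor of myeloid cells, and Apoc4, an apolipoprotein, had no count in non-stroked mice and reached 0.717, 2.83 and 0.981 and 1.92, 0.887 and 0.827 CPM, at least 16.7-fold and 13.4-fold (adjusted p = 0.00243 and 0.00954 with edgeR). Lilr4b, an inhibitory receptor of myeloid cells that has a close copy, had 2, 1 and 0 counts before and 4.65, 6.21 and 4.53 CPM after stroke, a ratio of 171 with a 95% counting interval of 58.3 to 833. Tgm1, a transglutaminase that crosslinks proteins, rose from 0.142, 0 and 0 to 8.81, 6.71 and 8.12 CPM (log2 fold change 7.20, SE 1.28, adjusted p = 0.00115), and the unnamed transcript Gm44805 from 0, 0 and 1 counts to 1.92, 1.27 and 1.29 CPM (ratio 149, interval 26.4 to 5930).

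The 19 genes called lower included 8 immediate early genes, which neurons switch on within minutes of activity and which are described further below. Olfr464, an olfactory receptor gene, was at 2.94, 2.7 and 2.86 CPM in non-stroked and 0.115, 0.665 and 0.643 CPM in stroked mice (log2 fold change -2.57, SE 0.63, adjusted p = 0.0109). Pth2r, the parathyroid hormone 2 receptor, fell from 1.84, 1.82 and 1.3 to 0.287, 0.748 and 0.582 CPM (log2 fold change -1.61, SE 0.34, adjusted p = 0.00356). Samd3 (log2 fold change -1.50), the ubiquitin protease gene Usp43 (-1.36), the Wnt receptor gene Fzd10 (-1.26), Colq (-1.26), which anchors acetylcholinesterase, Mesp2 (-1.24), Tmem74b (-1.15) and Sftpc (-1.01) also fell. Olfr464 lost its call without stroked mouse 1, Samd3 without stroked mouse 3, and Usp43 without non-stroked mouse 1 or 2 or stroked mouse 1 or 4, while Pth2r kept its call under every alternative tried.

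**Figure D2:**
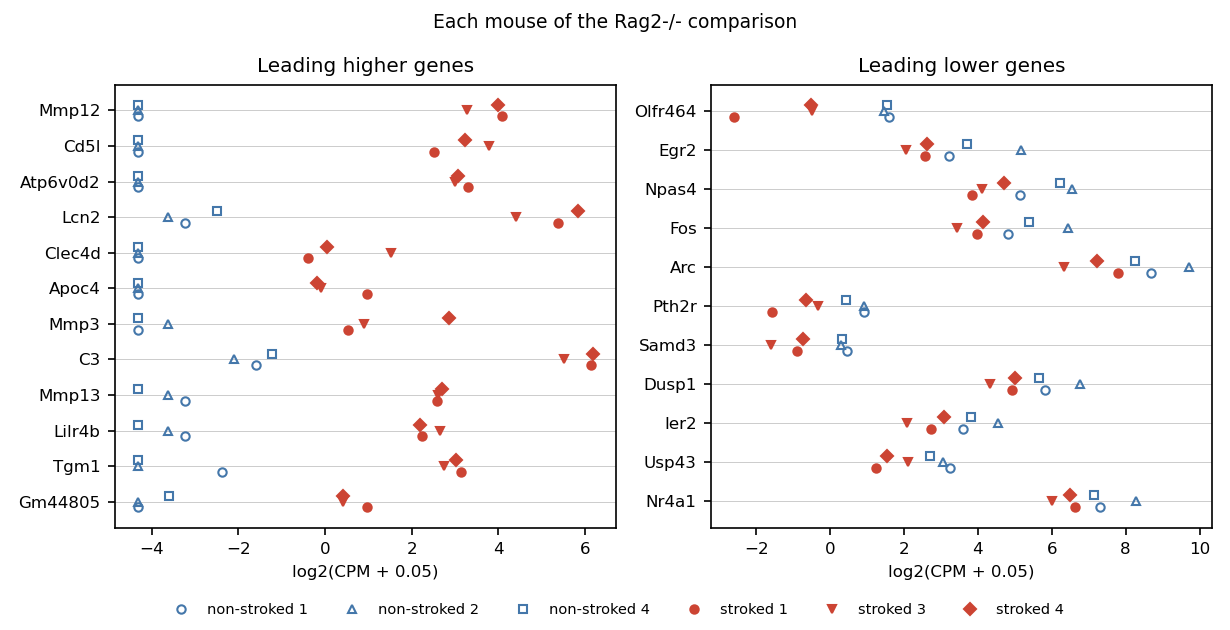
Each symbol is 1 mouse, with log2(CPM + 0.05) on the x axis and genes with the largest rise (left) or fall (right) on the y axis; open symbols are non-stroked and filled symbols stroked Rag2-/- mice. On the left the groups are separated by several log2 units, whereas on the right the gap is small and, for the immediate early genes, non-stroked mouse 2 lies above the other 2 non-stroked mice.

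Genes of activated microglia and macrophages rose together. Of 25 genes of this kind, 20 rose, against 4.22% of all genes, and 0 fell. Their median log2 fold change was 2.23 against -0.0033 over all genes. All 25 were higher in every stroked than in every non-stroked mouse, where 18.8% of all genes were. Cst7, an inhibitor of cathepsins, was at 0.0849, 0.0912 and 0.159 CPM in non-stroked and 15.6, 4.79 and 8.79 CPM in stroked mice (log2 fold change 6.41, SE 0.89, adjusted p = 0.00013), and stroked mouse 1 had the highest level. Lgals3, the carbohydrate-binding galectin 3, rose from 0.142, 0.334 and 0.445 to 22, 28.5 and 19.6 CPM (log2 fold change 6.26, SE 1.16, adjusted p = 0.00166). Clec7a, a receptor for fungal glucans that marks damage-associated microglia, rose from 0.34, 0.365 and 0.0318 to 23.1, 15.5 and 15.3 CPM (log2 fold change 6.15, SE 1.05, adjusted p = 0.000849). No group overlapped for these genes.

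Among the abundant members, lysozyme (Lyz2) was at 3.99, 3.65 and 3.65 CPM before and 159, 202 and 157 CPM after stroke (log2 fold change 5.52, SE 0.97, adjusted p = 0.0011), and Gpnmb, a glycoprotein of lipid-laden phagocytes, at 2.97, 3.8 and 2.92 and 105, 175 and 99.9 CPM (log2 fold change 5.29, SE 1.0, adjusted p = 0.00178). Both peaked in stroked mouse 3, the mouse in which Cst7 was lowest. The phagocytic receptor gene Trem2 (log2 fold change 2.03) and its signalling adaptor Tyrobp (2.23), the integrin gene Itgax (5.30), osteopontin (Spp1, 3.83) and Apoe (1.64), which carries lipids between brain cells, rose as well. Lpl, Csf1, Axl, Ctsb and Fabp5 did not pass, with log2 fold changes of 0.42 to 0.96. The count of 20 was 18 or 19 whichever mouse was left out.

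The genes by which resting microglia are recognised had smaller changes than those of activated microglia. Of 16 homeostatic genes 3 rose and 0 fell, where 4.22% of all genes were called higher, with a median log2 fold change of 0.58. An adjusted p below 0.05 (edgeR) was reached by 7, and 12 were higher in every stroked than in every non-stroked mouse, where 18.8% of all genes were. Among the 3 called were Aif1, which encodes the microglial stain Iba1 (3.94, 3.25 and 3.27 to 9.24, 6.21 and 7.81 CPM, log2 fold change 1.15, SE 0.30, adjusted p = 0.0166) and the Fc receptor-like gene Fcrls (1.06). P2ry12, the ADP receptor that guides resting processes, was at 33, 30.5 and 34.9 CPM in non-stroked and 39.5, 26.9 and 33.7 CPM in stroked mice (log2 fold change 0.02, SE 0.15, adjusted p = 0.965), with overlapping groups. Tmem119 (0.79, adjusted p = 0.000481) and Csf1r (0.71, adjusted p = 0.00232 with edgeR), the receptor microglia need to survive, lay under the fold minimum. The 3 calls rested on single mice: 0 genes were called without stroked mouse 1 or non-stroked mouse 2, and 2 without non-stroked mouse 1 or 4.

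Of 14 tested genes of macrophages at the brain's borders and in the blood 7 rose, against 4.22% of all genes. The median log2 fold change of the 14 was 1.26. Besides Cd5l, the scavenger receptor gene Msr1 rose from 0.17, 0.0608 and 0.0318 to 1.69, 1.27 and 2.02 CPM (log2 fold change 4.15, SE 0.83, adjusted p = 0.00274), and Ms4a7, Folr2, F13a1, Cd163 and the mannose receptor gene Mrc1 rose with log2 fold changes of 1.11 to 3.77. Ccr2, the chemokine receptor of incoming monocytes, was at 0.255, 0.365 and 0.349 CPM and 0.947, 0.97 and 1.29 CPM, higher in every stroked mouse but not called (log2 fold change 1.72, SE 0.64, adjusted p = 0.0993). Ly6c2, which marks inflammatory monocytes, had 1, 0 and 2 and 0, 2 and 0 counts and Marco at most 1 count in any of the 6 mice. The 7 calls became 3, 2 and 3 without stroked mouse 1, non-stroked mouse 1 or non-stroked mouse 2. F13a1 lost its call without stroked mouse 1 or 4 or any 1 non-stroked mouse, Cd163 without stroked mouse 1 or non-stroked mouse 1 or 2, Folr2 without stroked or non-stroked mouse 1, and Ms4a7 without non-stroked mouse 1 or 2.

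Of 15 genes for lipid handling by phagocytes 8 rose, against 4.22% of all genes. The median log2 fold change of the 15 was 1.78, or 1.65 with the 4 genes near 0 before stroke at their lower bound. Plin4, a coat protein of lipid droplets, had the smallest p of all 17031 genes: it was at 0.453, 0.729 and 1.33 CPM in non-stroked and 16.8, 35.8 and 25.3 CPM in stroked mice (log2 fold change 4.96, SE 0.52, adjusted p = 1.08e-05). Apoc1, an apolipoprotein, rose from 0.227, 0.0912 and 0.191 to 13, 7.07 and 6.8 CPM (log2 fold change 5.69, SE 0.86, adjusted p = 0.000288), and Fabp4, a fatty acid carrier of macrophages, from 1, 0 and 1 counts to 1.58, 3.16 and 1.75 CPM (ratio 109, 95% counting interval 29.8 to 904). Abca1, the cholesterol exporter, rose from 43.9, 44.2 and 40 to 168, 111 and 122 CPM (log2 fold change 1.65, SE 0.34, adjusted p = 0.00356), whereas its relative Abcg1 had a log2 fold change of 0.23 (adjusted p = 0.0949, edgeR). Apoc2 rose from 0, 0 and 1 counts to 1.46, 1.22 and 1.1 CPM (ratio 126, interval 22.2 to 5020), and the droplet coat gene Plin2, Apoc4 and Cd36 rose too, the last of which lost its call without stroked mouse 1 or any 1 non-stroked mouse. The count was 6 to 9 with 1 mouse left out.

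Lysosomal genes rose in part, where 4.22% of all genes rose. The 5 that rose of 18 (median log2 fold change 0.68) were Atp6v0d2 and the cathepsin genes Ctss (52.8, 52.1 and 55.4 to 289.5, 195 and 216 CPM, log2 fold change 2.13, SE 0.35, adjusted p = 0.000596), Ctsh (1.71), Ctsc (1.66) and Ctsl (1.03). The proton pump subunit genes Atp6ap1 and Atp6v1b2, present in every cell type, had log2 fold changes of -0.08 and -0.20. The membrane protein genes Lamp1 (0.44, adjusted p = 0.00362) and Lamp2 (0.66, adjusted p = 0.0386, both edgeR) lay under the fold minimum. Ctsl lost its call without stroked mouse 1 or any 1 non-stroked mouse.

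Complement genes rose along the classical pathway. Of 18 genes 13 rose, against 4.22% of all genes, and 0 fell (median log2 fold change 2.01, 1.95 with 1 gene at its bound). C1qa, a chain of the recognition molecule C1q, was at 42.1, 44.1 and 51.9 CPM in non-stroked and 296, 179.7 and 186 CPM in stroked mice (log2 fold change 2.26, SE 0.32, adjusted p = 0.000146), and C1qb (2.12) and C1qc (2.03) followed it. The protease genes C1s1 (1.98) and C2 (1.68) and the substrate gene C4b, which has a close copy in C4a, rose as well. C4b went from 10.5, 13.6 and 13.4 to 259, 186 and 133 CPM (log2 fold change 3.95, SE 0.53, adjusted p = 0.000107). Each of these genes was higher in all 3 stroked mice than in any non-stroked mouse, and C1qa and C4b were highest in stroked mouse 1.

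Of the alternative pathway, factor B (Cfb) rose from 0.0849, 0.274 and 0.0635 to 0.975, 0.831 and 1.13 CPM (log2 fold change 2.77, SE 0.69, adjusted p = 0.0121), while properdin (Cfp) was at 11, 10.7 and 10.2 and 10.6, 12.6 and 10.5 CPM (log2 fold change 0.08, SE 0.23, adjusted p = 0.889). The receptor genes C3ar1 (2.79), C5ar1 (1.69) and Itgb2 (1.92), which sense cleaved complement, and the inhibitor gene Serping1 (2.37) rose. The membrane inhibitors Cd55 (0.24, adjusted p = 0.551) and Cd59a (0.67, adjusted p = 0.171, both edgeR) did not pass. The count was 8 without non-stroked mouse 4, and Cfb lost its call without non-stroked mouse 1 or 4.

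Receptors for antibody, which mice without B cells do not make, rose. Of 6 Fc receptor genes 5 rose, against 4.22% of all genes (median log2 fold change 2.08). The count of 5 was the same with any 1 mouse left out. Fcgr3, an activating receptor, was at 7.87, 7.45 and 9.69 CPM before and 38.8, 29.3 and 33 CPM after stroke (log2 fold change 2.02, SE 0.31, adjusted p = 0.000288), and Fcgr2b, the inhibitory receptor, at 3.6, 3.16 and 2.8 and 21.1, 15.9 and 17.7 CPM (log2 fold change 2.51, SE 0.44, adjusted p = 0.00109). Fcgr4 had 3, 2 and 3 counts before stroke and 2.24, 1.5 and 1.59 CPM after it (ratio 22.1, 95% counting interval 11 to 52). The shared signalling chain gene Fcer1g (2.14) and the high-affinity receptor gene Fcgr1 (1.53) rose, and Fcgrt, which recycles antibody, stayed under the fold minimum (0.83, adjusted p = 0.0467, edgeR).

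Reactive astrocyte genes rose in 16 of 20 cases, against 4.22% of all genes (median log2 fold change 2.47). Gfap, the intermediate filament stained to show the scar, was at 112, 159.5 and 165 CPM in non-stroked and 1694, 1120.4 and 800.3 CPM in stroked mice (log2 fold change 3.05, SE 0.39, adjusted p = 6.8e-05), so that the lowest stroked mouse was still several times above the highest non-stroked one. Vim, another filament gene, rose from 20.3, 22.6 and 19.8 to 195, 150.2 and 139 CPM (log2 fold change 2.95, SE 0.48, adjusted p = 0.000527). Serpina3n, a protease inhibitor with close copies, rose from 11.7, 12.2 and 16.3 to 203, 159 and 116 CPM (log2 fold change 3.57, SE 0.51, adjusted p = 0.000178). All 3 were highest in stroked mouse 1 and lowest in stroked mouse 4, which had the most Lcn2. The metalloreductase gene Steap4 (5.13), Timp1 (3.88), the hyaluronan receptor gene Cd44 (2.73), the oncostatin M receptor gene Osmr (2.24) and Ptx3 (2.96) also rose, and Hspb1, S100a10, Nes and Fbln5 were not called (log2 fold changes 0.31 to 0.95). The count was 11 without stroked mouse 1 and 12 to 16 without any other mouse.

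Genes that all astrocytes express gave no call. None of 13 was called with edgeR or DESeq2 (median log2 fold change 0.22). With edgeR 6 had an unadjusted p below 0.05, and 5 of these also an adjusted p below it with a fold under the minimum. Aqp4, the water channel of astrocyte end feet, was at 127, 137 and 113 CPM before and 331, 196 and 215 CPM after stroke (log2 fold change 0.97, SE 0.23, adjusted p = 0.00976). Aldh1l1, a general astrocyte marker, was at 60.9, 63.2 and 61.9 and 69.1, 68 and 71.6 CPM (log2 fold change 0.17, SE 0.10, adjusted p = 0.382), and the glutamate transporter gene Slc1a2 had overlapping groups (0.11, adjusted p = 0.761, edgeR).

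Enzymes that degrade matrix rose in part. Of 18 matrix metalloproteinase and Timp genes 6 rose, against 4.22% of all genes, and 0 fell (median log2 fold change 0.48). Next to Mmp12, the collagenase gene Mmp13 had 2, 1 and 0 counts before and 5.94, 6.1 and 6.5 CPM after stroke (ratio 205, 95% counting interval 69.8 to 997), nearly equal in the 3 stroked mice. The stromelysin gene Mmp3 had 0, 1 and 0 counts before and 1.41, 1.83 and 7.23 CPM after it (ratio 338, interval 60.2 to 13400), with most of the signal in stroked mouse 4. Mmp19 rose from 0.396, 0.517 and 0.476 to 4.27, 3.96 and 3.59 CPM (log2 fold change 3.08, SE 0.59, adjusted p = 0.00204) and the gelatinase gene Mmp2 from 2.32, 2.13 and 2.19 to 7.74, 7.09 and 6.43 CPM (log2 fold change 1.68, SE 0.48, adjusted p = 0.029). Timp1, the inhibitor of these enzymes, rose from 0.453, 0.304 and 0.318 to 5.13, 4.38 and 6.53 CPM (log2 fold change 3.88, SE 0.78, adjusted p = 0.00274), whereas Timp2 (0.25) and Timp4 (0.36) were not called. Mmp9, the gelatinase of neutrophils, was at 0.991, 1.4 and 1.65 CPM in non-stroked and 1.63, 1.77 and 1.56 CPM in stroked mice (log2 fold change 0.30, SE 0.25, adjusted p = 0.54), with overlapping groups. Mmp3 lost its call without stroked mouse 4 or any 1 non-stroked mouse and Mmp2 without stroked mouse 1 or 3 or any 1 non-stroked mouse, and the list count was 4 without any 1 non-stroked mouse.

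The 3 metalloproteinase genes with almost no counts before stroke lie close together on chromosome 9 and share a letter pattern upstream. The stretches below are the 160 bases before each RefSeq start (GRCm38.p6), at chr9:7347214-7347373, chr9:7445662-7445821 and chr9:7272354-7272513, all on the plus strand. Capitals mark the AP-1 pattern TGANTCA, to which Fos and Jun proteins bind, found 44, 46 and 35 bases before the start.
Mmp12: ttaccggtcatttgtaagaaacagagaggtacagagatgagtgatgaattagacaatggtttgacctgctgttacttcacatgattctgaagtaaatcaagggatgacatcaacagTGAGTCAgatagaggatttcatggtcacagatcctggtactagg
Mmp3: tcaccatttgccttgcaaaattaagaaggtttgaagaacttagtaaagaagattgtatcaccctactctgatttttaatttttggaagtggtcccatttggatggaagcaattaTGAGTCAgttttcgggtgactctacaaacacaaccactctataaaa
Mmp13: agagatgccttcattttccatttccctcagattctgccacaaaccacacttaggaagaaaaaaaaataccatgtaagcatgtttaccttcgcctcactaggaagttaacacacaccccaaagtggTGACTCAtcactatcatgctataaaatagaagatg
Searched on both strands in the 300 bases from 250 before to 50 after the start, TGANTCA was present in these 3 of the 13 metalloproteinase and Timp genes with a RefSeq promoter, in 15.6% of the 545 genes called higher that had one and in 8.97% of all 27025 promoters. A match is a description of the letters and shows no binding.

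Collagens and other products of scar fibroblasts rose. Of 24 genes 11 rose, against 4.22% of all genes, and 0 fell (median log2 fold change 1.39). In every stroked mouse 21 were higher, where 18.8% of all genes were. Col3a1, a fibrillar collagen, was at 3.99, 5.38 and 3.37 CPM in non-stroked and 39.5, 49.5 and 64.5 CPM in stroked mice (log2 fold change 3.59, SE 0.88, adjusted p = 0.0111), and Col1a1 at 9.23, 13.1 and 11.2 and 82.7, 89 and 72 CPM (log2 fold change 2.86, SE 0.76, adjusted p = 0.0186). The small proteoglycan gene Dcn rose from 8.61, 10.6 and 8.07 to 64.6, 46 and 66.7 CPM (log2 fold change 2.70, SE 0.61, adjusted p = 0.00597). Sfrp4 (3.26), which binds Wnt ligands, Lum (2.94), Mgp (2.75), Col1a2 (2.65) and the collagen crosslinker gene Lox (2.32) rose as well, whereas Fn1, fibronectin, was at 91.1, 108 and 64.9 and 160.4, 159 and 153 CPM (log2 fold change 0.84, SE 0.38, adjusted p = 0.199). Pdgfra (0.16) and Col15a1 (-0.30), the latter a collagen of vessel walls, did not follow. The count moved with single mice: 4, 3, 4 and 3 genes were called without stroked mouse 1 or non-stroked mouse 1, 2 or 4. Col3a1 lost its call without non-stroked mouse 1 or 4, and Col1a1 and Lum without stroked mouse 1 or any 1 non-stroked mouse.

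Chemokines that attract monocytes and T cells rose. Of 20 ligand genes 10 rose, against 4.22% of all genes, and 0 were called lower. The median log2 fold change was 2.79, or 2.54 with 7 genes at their bound. Ccl3, made by microglia, was at 0.255, 0.122 and 0.222 CPM before and 3.01, 2.47 and 1.75 CPM after stroke (log2 fold change 3.56, SE 0.56, adjusted p = 0.000422). Cxcl16, which attracts cells that carry Cxcr6, rose from 0.991, 1.61 and 1.08 to 11.6, 6.71 and 8.49 CPM (log2 fold change 2.86, SE 0.59, adjusted p = 0.00334), and Cxcl10, an interferon-induced ligand, from 0.113, 0.152 and 0.191 to 2.07, 1.19 and 1.26 CPM (log2 fold change 3.29, SE 0.78, adjusted p = 0.0093). Ccl4, Ccl6, Ccl9 and Ccl12 rose with log2 fold changes of 1.60 to 3.47. Ccl5, which attracts T cells, rose from 3, 1 and 2 counts to 0.746, 0.36 and 0.521 CPM (ratio 8.98, 95% counting interval 3.88 to 25.5). Ccl7 (ratio 14.4, interval 3.66 to 125) and Ccl8 (ratio 43.3, interval 7.39 to 1750) rose from at most 2 counts per mouse.

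The monocyte attractant gene Ccl2 was at 0, 0.0608 and 0 CPM and 0.746, 0.0831 and 0.46 CPM and not called (log2 fold change 4.17, SE 1.36, adjusted p = 0.0578), with stroked mouse 3 little above non-stroked mouse 2. The neutrophil attractant genes Cxcl1 (adjusted p = 0.0566) and Cxcl2 (adjusted p = 0.437, both edgeR) did not pass either. Cx3cl1, the membrane-bound ligand by which neurons signal to microglia, was lower in every stroked mouse (1024, 1065 and 1018 to 616, 787 and 687 CPM) and reached an adjusted p of 0.00206 in edgeR, under the fold minimum at -0.57. The count of 10 was 4, 5 and 5 without stroked mouse 1 or non-stroked mouse 1 or 4. Ccl5 and Ccl8 lost their calls without stroked mouse 1 or any 1 non-stroked mouse, Ccl8 also without stroked mouse 4, Ccl7 without stroked mouse 1 or non-stroked mouse 1 or 4, and Cxcl10 without stroked or non-stroked mouse 1.

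Of 26 cytokine, receptor and signalling genes 11 rose, against 4.22% of all genes (median log2 fold change 0.94). Il33, an alarm cytokine stored in the nuclei of glia, was at 35.1, 36.1 and 34.8 CPM in non-stroked and 104, 68.3 and 70.5 CPM in stroked mice (log2 fold change 1.20, SE 0.13, adjusted p = 1.5e-05), with a narrow spread before stroke. The interleukin 1 receptor antagonist gene Il1rn had 1, 0 and 1 counts before stroke and 0.861, 0.305 and 0.858 CPM after it (ratio 33.2, 95% counting interval 8.85 to 280), and Il1b, the cytokine it opposes, was at 0.0283, 0.213 and 0.0953 and 0.545, 0.249 and 0.552 CPM (log2 fold change 1.97, SE 0.60, adjusted p = 0.0388). Osm, a cytokine of myeloid cells, had 1, 2 and 3 counts before and 21, 17 and 9 after stroke (ratio 7.54, interval 3.22 to 21.6), and its receptor gene Osmr rose as well. Il2rg, the chain shared by several interleukin receptors, rose from 0.991, 0.76 and 0.667 to 3.16, 2.36 and 2.85 CPM (log2 fold change 1.78, SE 0.38, adjusted p = 0.00403), and the TNF receptor genes Tnfrsf1a (1.40) and Tnfrsf1b (1.66) rose. Tnf was at 0.113, 0.0608 and 0.0318 and 0.316, 0.305 and 0.245 CPM and not called (log2 fold change 1.99, SE 0.73, adjusted p = 0.0962). Il6 had at most 5 counts and Il10 at most 2 in any of the 6 mice, and Ifng, the cytokine of activated T and NK cells, had 0 counts in all 6. The list count was 5 without stroked mouse 1, and Il33 lost its call without this mouse. Il1rn lost its call without stroked mouse 1 or 4 or any 1 non-stroked mouse, and Il1b without stroked mouse 1 or 4 or non-stroked mouse 1 or 4.

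Interferon-stimulated genes rose in part. Of 26 genes 10 rose, against 4.22% of all genes, and 0 fell (median log2 fold change 1.39). Of the 26, 21 were higher in every stroked than in every non-stroked mouse, where 18.8% of all genes were. Oas3, which makes the messenger that activates RNase L, had 0 counts before stroke and 26, 10 and 4 counts after it (at least 4.23-fold, adjusted p = 0.00655, edgeR). The DNA sensor family members Ifi204 and Ifi207, which have close copies, rose from 0.255, 0.243 and 0.254 to 5.91, 3.05 and 2.76 CPM (log2 fold change 3.94, SE 0.68, adjusted p = 0.000849) and by a log2 fold change of 3.81. Bst2, which tethers viruses to the cell surface, was at 1.08, 1.12 and 1.37 CPM in non-stroked and 8.15, 4.1 and 3.92 CPM in stroked mice (log2 fold change 2.18, SE 0.50, adjusted p = 0.00687). Oas3, Ifi204 and Bst2 were highest in stroked mouse 1, and no group overlapped.

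The RNA-binding genes Ifit3 (1.44) and Ifit3b (1.46), the guanylate-binding gene Gbp2 (1.54), Ifitm3 (1.57), Ifi27l2a (2.64) and the sensor gene Zbp1 (2.59) completed the 10. Isg15, the ubiquitin-like modifier, was at 0.68, 0.912 and 0.54 CPM and 1.66, 0.831 and 1.1 CPM with overlapping groups (log2 fold change 0.75, SE 0.61, adjusted p = 0.528), and Irf7, the regulator of type I interferon, at 2.55, 2.37 and 1.59 and 7.34, 2.83 and 2.97 CPM (log2 fold change 1.01, SE 0.44, adjusted p = 0.174). Stat2 (-0.01), which carries the interferon signal, did not pass. The count was 4 without stroked mouse 1 and 6 without non-stroked mouse 4. Oas3 and Bst2 lost their calls without stroked mouse 1, and Ifi27l2a and Zbp1 without stroked mouse 1 or any 1 non-stroked mouse.

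MHC class II molecules present antigen to CD4 T cells, which Rag2-/- mice lack. Of 10 MHC class II genes 6 rose, against 4.22% of all genes (median log2 fold change 2.20). The count of 6 was the same with any 1 mouse left out. H2-Aa, a chain of the presenting molecule, was at 0.51, 1.12 and 1.18 CPM in non-stroked and 20.8, 8.67 and 13.6 CPM in stroked mice (log2 fold change 3.94, SE 0.81, adjusted p = 0.003). Cd74, the invariant chain that guides it, was at 2.41, 3.65 and 2.73 and 73.7, 19.9 and 24 CPM (log2 fold change 3.74, SE 0.74, adjusted p = 0.00256), and stroked mouse 1 had several times the level of the other stroked mice. H2-Ab1 (3.73), H2-Eb1 (3.23), H2-DMb1 (2.32) and H2-Oa (1.53) rose. Ciita, the master regulator of these genes, was higher in every stroked mouse but not called (0.0283, 0.213 and 0.0953 to 0.43, 0.499 and 0.521 CPM, log2 fold change 2.09, SE 0.83, adjusted p = 0.13), and H2-DMa did not pass (0.10).

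Of 16 MHC class I genes 9 rose, against 4.22% of all genes (median log2 fold change 1.31). In every stroked mouse 15 were higher, where 18.8% of all genes were. The classical gene H2-K1 was at 19.2, 20.5 and 16.8 CPM before and 81.8, 52 and 52.5 CPM after stroke (log2 fold change 1.72, SE 0.31, adjusted p = 0.00131), and B2m, the shared light chain, at 95, 90.8 and 97.6 and 283, 172 and 225 CPM (log2 fold change 1.26, SE 0.26, adjusted p = 0.00283). H2-D1 (1.67), the near-identical genes H2-Q6 (2.02) and H2-Q7 (2.31), H2-Q4 (1.36), the immunoproteasome gene Psmb8 (1.72), the peptide transporter gene Tap1 (1.15) and the regulator gene Nlrc5 (1.81) rose too. The count was 4, 5 and 4 without stroked mouse 1, non-stroked mouse 1 or non-stroked mouse 4, and H2-Q6, H2-Q7 and Nlrc5 lost their calls without any 1 of these 3 mice.

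Some promoters of the class II and interferon-stimulated genes held letters known to bind their regulators. Shown first, for the class II genes, are the 160 bases before the RefSeq start (GRCm38.p6) of H2-Aa (chr17:34287824-34287983, minus strand) and H2-Eb1 (chr17:34305707-34305866, plus strand), with the Y box CTGATTGG, to which the factor NF-Y binds, in capitals 51 and 62 bases before the start. Of 7 class II genes with a RefSeq promoter 3 (42.9%) held it on either strand in the 300-base window. The same letters were in 7 of 14 class I promoters (50%). They were in 4.59% of the 545 genes called higher and in 4.7% of all promoters.
H2-Aa: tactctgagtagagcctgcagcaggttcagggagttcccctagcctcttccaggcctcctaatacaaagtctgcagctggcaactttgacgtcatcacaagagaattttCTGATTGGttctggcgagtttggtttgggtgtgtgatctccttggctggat
H2-Eb1: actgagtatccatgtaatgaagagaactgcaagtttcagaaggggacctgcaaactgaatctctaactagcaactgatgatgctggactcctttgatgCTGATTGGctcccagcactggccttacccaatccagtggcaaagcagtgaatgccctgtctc
For the interferon-stimulated genes the capitals mark the pattern of the interferon-stimulated response element, GAAA, any 2 bases and GAAA or its complement, in Oas3 (chr5:120777660-120777819, minus strand), Bst2 (chr8:71537473-71537632, minus strand) and Gbp2 (chr3:142620503-142620662, plus strand).
Oas3: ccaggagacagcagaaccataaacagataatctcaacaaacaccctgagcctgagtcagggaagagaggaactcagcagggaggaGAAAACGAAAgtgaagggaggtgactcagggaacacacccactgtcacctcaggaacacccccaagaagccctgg
Bst2: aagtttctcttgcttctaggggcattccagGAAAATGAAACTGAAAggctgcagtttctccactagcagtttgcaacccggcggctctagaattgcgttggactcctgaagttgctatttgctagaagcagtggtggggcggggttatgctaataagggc
Gbp2: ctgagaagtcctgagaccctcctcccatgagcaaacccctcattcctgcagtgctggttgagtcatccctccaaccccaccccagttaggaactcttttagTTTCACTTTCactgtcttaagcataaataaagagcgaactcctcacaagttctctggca
Of 19 interferon-stimulated genes with a promoter 13 (68.4%) held it, against 9.36% of the 545 genes called higher and 3.99% of all promoters, and the matches in Bst2 overlap each other. These are matches of letters and not binding sites.

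T and B cell genes were checked against the absence of both lineages. None of 18 tested T cell genes rose by edgeR or DESeq2, 1 fell, and 1 had an unadjusted p below 0.05 (median log2 fold change 0.19, -0.02 without the 4 genes at or under 3 counts in all 6 mice). Cd3e, a chain of the receptor complex of every T cell, had 1, 1 and 0 counts in non-stroked and 0, 2 and 1 in stroked Rag2-/- mice, and at most 0.0554 CPM in any of them, against 0.139 to 0.707 CPM in stroked WT mice. Cd8a, the coreceptor of cytotoxic T cells, had 0, 2 and 0 and 1, 2 and 0 counts, against 0.0435 to 0.808 CPM in stroked WT mice and at most 0.0608 CPM here, and Cd3d 0 counts in all 6 mice. The genes for the constant parts of the T cell receptor did not all go this way. Trbc2 was at 6.25 to 8.70 CPM in stroked Rag2-/- and 4.26 to 8.38 CPM in stroked WT mice. Trac overlapped WT in non-stroked mice (0.395 to 0.445 and 0.371 to 0.707 CPM) but not in stroked mice (0.398 to 0.688 and 0.733 to 1.25 CPM). Trbc1 was at most at 0.0574 CPM here, against 0.0556 to 0.275 CPM in stroked WT mice. Cd4 was at 17.7, 3.62 and 7.59 and 16.9, 8.23 and 1.5 CPM with wide, overlapping groups, and other cells are known to express it too. Cd6, a surface protein of T cells, fell from 6.94, 7.48 and 6 to 1.95, 3.02 and 3.95 CPM (log2 fold change -1.19, SE 0.34, adjusted p = 0.0273) although the Cd3 genes were at or near 0, and it lost its call without stroked mouse 1 or 3 or any 1 non-stroked mouse.

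Of 12 tested B cell and antibody genes none was called by edgeR or DESeq2, and none had an unadjusted p below 0.05 (median log2 fold change 0.00, 0.04 without the 4 genes at or under 3 counts). Igha, the heavy chain of IgA, had 0 counts in all 6 mice. Ighm, the heavy chain of IgM, was at 46.6, 45.3 and 55.9 CPM and 44.9, 40.9 and 43.9 CPM and made up most of the sum over the list. Over all 18 genes, tested or not, this sum was 46.4 to 54.0 CPM in non-stroked WT and 51.4 to 61.5 CPM in non-stroked Rag2-/- mice. Ighg2c, the heavy chain of IgG2c, was at 4.22, 3.46 and 3.62 and 1.69, 2.74 and 4.32 CPM, and both genes stood apart from Igkc, the kappa light chain, with 0, 3 and 3 and 2, 1 and 3 counts.

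NK and innate lymphoid cells are known to form without Rag2. Of 11 tested NK and innate lymphoid cell genes 4 rose, against 4.22% of all genes. The median log2 fold change was 1.74, or 0.84 with 4 genes at their bound. All 19 genes of the list, tested or not, summed to 3.10 to 3.79 CPM in non-stroked and 6.79 to 9.44 CPM in stroked mice, with no overlap. The activating receptor gene Klrk1 had 0 counts before and 7, 4 and 4 counts after stroke (at least 1.6-fold, adjusted p = 0.0428, edgeR), and Klrb1c, which encodes the NK1.1 antigen, 0, 0 and 1 and 13, 3 and 11 counts (ratio 26, 95% counting interval 4.28 to 1060). Il7r, the interleukin 7 receptor of lymphoid cells, rose from 0.566, 0.304 and 0.318 to 1.61, 1.16 and 2.64 CPM (log2 fold change 2.16, SE 0.64, adjusted p = 0.0335). Nkg7, of cytotoxic granules, had 0, 1 and 0 and 3, 4 and 9 counts (adjusted p = 0.058, edgeR), and Gzmb, a granzyme, 0, 0 and 0 and 4, 2 and 3 counts, under the minimum for a test. The count was 0, 1, 1, 2 and 2 without stroked mouse 1, non-stroked mouse 1, non-stroked mouse 2, non-stroked mouse 4 or stroked mouse 4. Klrk1 lost its call without any 1 of the 6 mice, Il7r without any 1 but stroked mouse 3, and Klrb1c without stroked mouse 1 or non-stroked mouse 1 or 2.

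**Figure D3:**
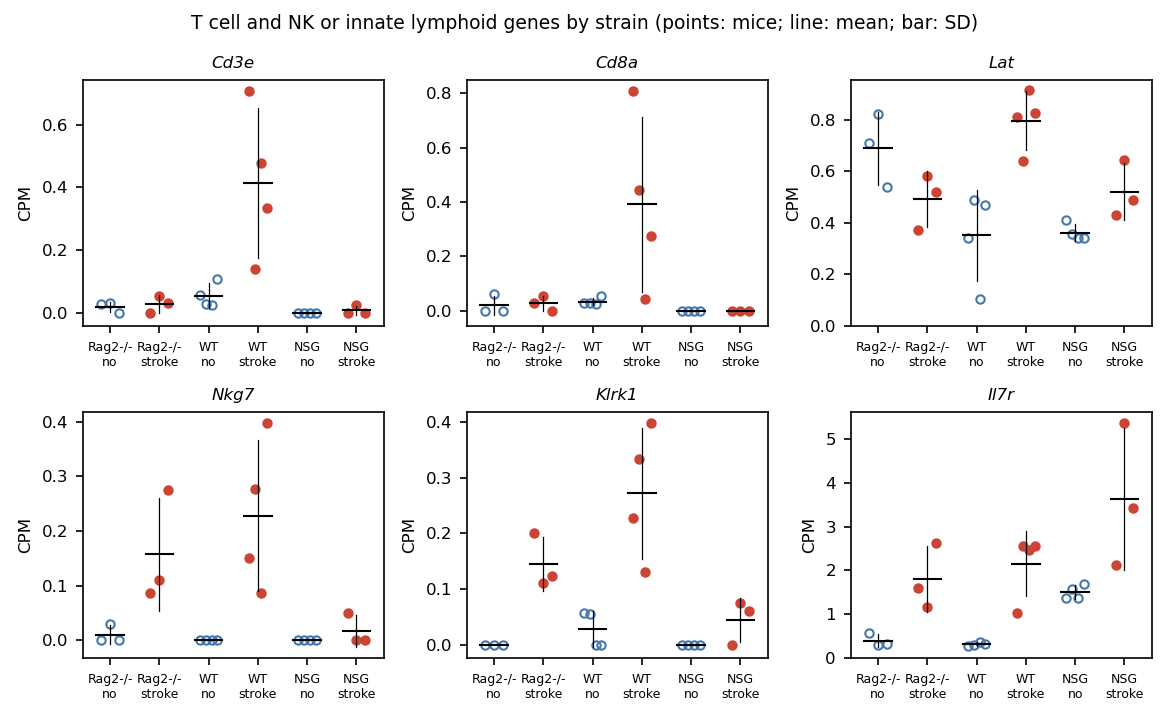
Each symbol is 1 mouse, and each panel shows 1 gene (Cd3e, Cd8a, Lat, Nkg7, Klrk1 or Il7r), in CPM on the y axis. The x axis holds the non-stroked and stroked groups of Rag2-/-, WT and NSG mice, with lines at the means and bars for the SD. Il7r is at 0.304 to 0.566 CPM in non-stroked and 1.16 to 2.64 CPM in stroked Rag2-/- mice. Cd3e is at most at 0.0304 and 0.0554 CPM in these groups, and at 0.139 to 0.707 CPM in stroked WT mice.

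Neutrophil and red blood cell genes gave no call by edgeR or DESeq2 among 8 tested, of which 2 had an unadjusted p below 0.05 (median log2 fold change -0.47). The calprotectin gene S100a8 was at 0.0849, 0.152 and 0.349 CPM and 0.574, 0.61 and 1.23 CPM (log2 fold change 2.03, SE 0.78, adjusted p = 0.115), and Ly6g, which defines neutrophils, had at most 1 count. The haemoglobin gene Hbb-bs was highest in non-stroked mouse 4 (2.97, 2.98 and 17.8 and 4.27, 7.09 and 4.17 CPM).

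Genes of cortical neurons had mostly lower values in stroked mice, without a call. None of 24 was called by edgeR or DESeq2 and 5 had an unadjusted p below 0.05, while 17 were lower in all 3 stroked than in all 3 non-stroked mice, where 16.9% of all genes were (median log2 fold change -0.34). Rbfox3, which encodes the neuronal stain NeuN, was at 447, 493 and 538 CPM in non-stroked and 333, 382 and 348 CPM in stroked mice (log2 fold change -0.47, SE 0.19, adjusted p = 0.137). Snap25, of the synaptic release machinery, was at 2812, 2983 and 3105 and 1955, 2264 and 2678 CPM (log2 fold change -0.37, SE 0.16, adjusted p = 0.174). Rorb, a marker of middle cortical layers, had a log2 fold change of -0.69 (adjusted p = 0.0806, edgeR) and was lowest in stroked mouse 1. The neurofilament gene Nefl was at 385, 386 and 395 and 328, 327 and 347 CPM (adjusted p = 0.32, edgeR), and the calcium kinase gene Camk2a at 4818, 5114 and 5288 and 4495, 4670.0 and 4487 CPM (adjusted p = 0.723, edgeR).

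Immediate early genes fell. Of 13 genes 8 fell, against 0.112% of all genes, and 0 rose (median log2 fold change -1.27 against -0.0033 over all genes). In all 3 stroked mice 11 were lower, where 16.9% of all genes were. Fos, a subunit of AP-1, was at 28.1, 86.5 and 41.8 CPM in non-stroked and 15.7, 10.8 and 17.6 CPM in stroked mice (log2 fold change -1.83, SE 0.48, adjusted p = 0.0174). Arc, whose protein regulates receptors at synapses, was at 408, 843 and 302 and 222, 80.3 and 149 CPM (log2 fold change -1.78, SE 0.47, adjusted p = 0.0179), and Npas4, a transcription factor induced by activity, at 35.3, 93.6 and 74.7 and 14.1, 17.2 and 26 CPM (log2 fold change -1.83, SE 0.42, adjusted p = 0.00695). The groups did not overlap for these 3 genes, and non-stroked mouse 2 was highest for each.

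The transcription factor gene Egr1 was at 514, 877 and 630.3 and 318, 291 and 350.1 CPM (log2 fold change -1.08, SE 0.24, adjusted p = 0.00625). The nuclear receptor gene Nr4a1 (-1.27), the phosphatase gene Dusp1 (-1.39), Ier2 (-1.37) and Egr2 (-1.86) also fell, while Bdnf, the activity-dependent neurotrophin, was lower in all 3 stroked mice without a call (27.7, 29.8 and 28.3 to 21.4, 20.5 and 21.4 CPM, log2 fold change -0.44, SE 0.21, adjusted p = 0.221). Without non-stroked mouse 2 none of the 13 was called lower, and without stroked mouse 3 or 1 the count was 2 and 4. Without non-stroked mouse 2 all 8 lost their calls, without stroked mouse 1 Fos, Npas4, Ier2 and Egr2, and without stroked mouse 3 Egr2, Arc, Fos, Nr4a1, Dusp1 and Ier2. Egr2, at an adjusted p of 0.0496 (edgeR), kept its call only without non-stroked mouse 1 among the 6, and lost it also without a filter on low counts, with a mean of at least 1 CPM, in the Imm2 cohort alone and with Ddx3y as a covariate.

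**Figure D4:**
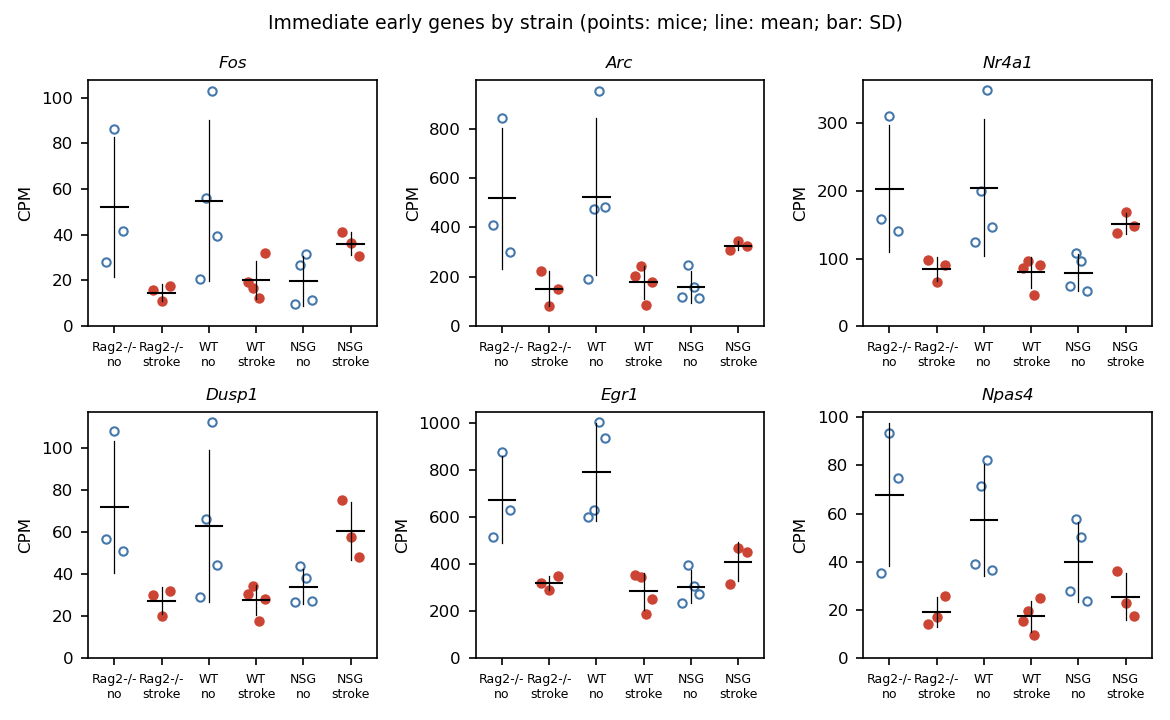
Each symbol is 1 mouse, with the CPM of an immediate early gene on a linear y axis. The non-stroked and stroked groups of Rag2-/-, WT and NSG mice are on the x axis. For the 6 genes shown, stroked Rag2-/- mice lie below all non-stroked ones, as for Arc at 80.3 to 222 against 302 to 843 CPM. In NSG mice the stroked group lies above the non-stroked one for Arc (309.5 to 344 against 112 to 248 CPM), Nr4a1 and Dusp1, the groups overlap for Fos and Egr1, and Npas4 is at 17.4 to 36.4 against 23.6 to 57.6 CPM.

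Vessel genes were called higher about as often as genes in general (4.22%), but a p below 0.05 was more frequent among them. With edgeR 9 of 19 endothelial and 12 of 23 angiogenesis genes had an unadjusted p below 0.05, against 3691 of all 17031. An adjusted p below 0.05 was reached by 5 and 3, against 1402. Of 19 genes of blood-brain barrier endothelium 1 rose (median log2 fold change -0.02), Icam1, an adhesion molecule for leukocytes, from 2.43, 2.07 and 1.56 to 8.12, 7.51 and 7.78 CPM (log2 fold change 1.95, SE 0.39, adjusted p = 0.00248), with any 1 mouse left out as well. Pecam1, stained as CD31 to show vessels, was at 18.3, 19.3 and 15.5 CPM and 21.4, 16.5 and 15.8 CPM (log2 fold change 0.02, SE 0.20, adjusted p = 0.984), and the tight junction gene Cldn5 was lower in every stroked mouse without a call (27.2, 23.7 and 18.4 to 13.4, 14.7 and 10.4 CPM, log2 fold change -0.84, SE 0.30, adjusted p = 0.0815). Of 23 angiogenesis genes 2 rose (median 0.08), the chemokine receptor gene Cxcr4 (0.963, 1.37 and 0.953 to 5.51, 4.99 and 3.74 CPM, log2 fold change 2.11, SE 0.55, adjusted p = 0.0173) and the vessel-stabilising ligand gene Angpt1 (1.09). Vegfa, the main vessel growth factor, was lower in every stroked mouse (81.5, 79.3 and 79.7 to 55.7, 56.2 and 66.6 CPM), past the adjusted p but under the fold minimum (log2 fold change -0.43, SE 0.10, adjusted p = 0.0106), and its receptor gene Kdr had a log2 fold change of -0.89 (adjusted p = 0.0931, edgeR). None of 13 pericyte and smooth muscle genes was called by edgeR (2 at an unadjusted p below 0.05) and 1 by DESeq2 (median 0.09). Anpep, stained as CD13 on pericytes and found on myeloid cells too, was at 5.8, 6.38 and 6.23 and 16.1, 19.1 and 14.4 CPM (log2 fold change 1.43, SE 0.46, adjusted p = 0.0556). Both angiogenesis calls were lost without stroked mouse 1, non-stroked mouse 1 or non-stroked mouse 4, and Angpt1 also without non-stroked mouse 2.

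Several other groups gave no call. None of 15 myelin and oligodendrocyte genes was called by edgeR or DESeq2 (2 at an unadjusted p below 0.05, median log2 fold change 0.19). Mbp, of the myelin sheath, was at 2986, 3077 and 3342 CPM in non-stroked and 5147, 3462 and 3379 CPM in stroked mice (log2 fold change 0.35, SE 0.23, adjusted p = 0.407), with only stroked mouse 1 clearly above the rest. None of 16 cell cycle genes was called by either tool or had an unadjusted p below 0.05 (median 0.21), among them Mki67, the Ki-67 antigen (4.19, 3.46 and 2.7 and 5.36, 5.07 and 3.03 CPM). None of 21 ribosomal protein genes was called by either tool (10 at an unadjusted p below 0.05), but 18 were higher in all 3 stroked mice (median 0.33), where 18.8% of all genes were. Of 17 tested genes of subcortical neurons none was called (1 at an unadjusted p below 0.05, DESeq2 also 0). All 19 genes of the list, tested or not, summed to 285.8 to 742 CPM in non-stroked and 214.8 to 725 CPM in stroked mice, led by the striatal gene Ppp1r1b.

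The median log2 fold change was 0.38 over 18 genes of axon growth and neurotrophic support. It was 0.22 with the gene at its bound and without the gene at the floor. Of the 18 genes 4 rose, against 4.22% of all genes. They were the injury transcription factor Atf3 (0.453, 0.456 and 0.54 to 3.64, 3.41 and 2.76 CPM, log2 fold change 2.75, SE 0.70, adjusted p = 0.0146), the astrocyte cytokine gene Cntf (0.764, 0.699 and 1.14 to 4.13, 2.13 and 2.64 CPM, log2 fold change 1.77, SE 0.37, adjusted p = 0.00379), Igf1 (1.33) and Fgf2 (1.01). Gap43, of growing axons, was at 130.0, 130.2 and 143 and 102, 129 and 130.0 CPM (log2 fold change -0.16, SE 0.19, adjusted p = 0.697), with overlapping groups. Without stroked mouse 1, non-stroked mouse 2 or non-stroked mouse 4 only 1 gene was called, and without non-stroked mouse 1 there were 2. Atf3 lost its call without stroked mouse 1 or any 1 non-stroked mouse, Fgf2 without stroked mouse 1 or non-stroked mouse 2 or 4, and Igf1 without any 1 of the 6 mice. Of 14 proteoglycans and tenascins, which inhibit axon growth in the scar, only Cd44 was called, against 4.22% of all genes called higher (median -0.05). The call of Cd44 held with any 1 mouse left out as well. The brain proteoglycan genes Ncan (-0.27) and Bcan (0.02) did not pass. Of the 7 genes whose proteins the study stained, Gfap and Aif1 rose, and Aif1 lost its call without stroked mouse 1 or non-stroked mouse 2 or 4.

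**Figure D5:**
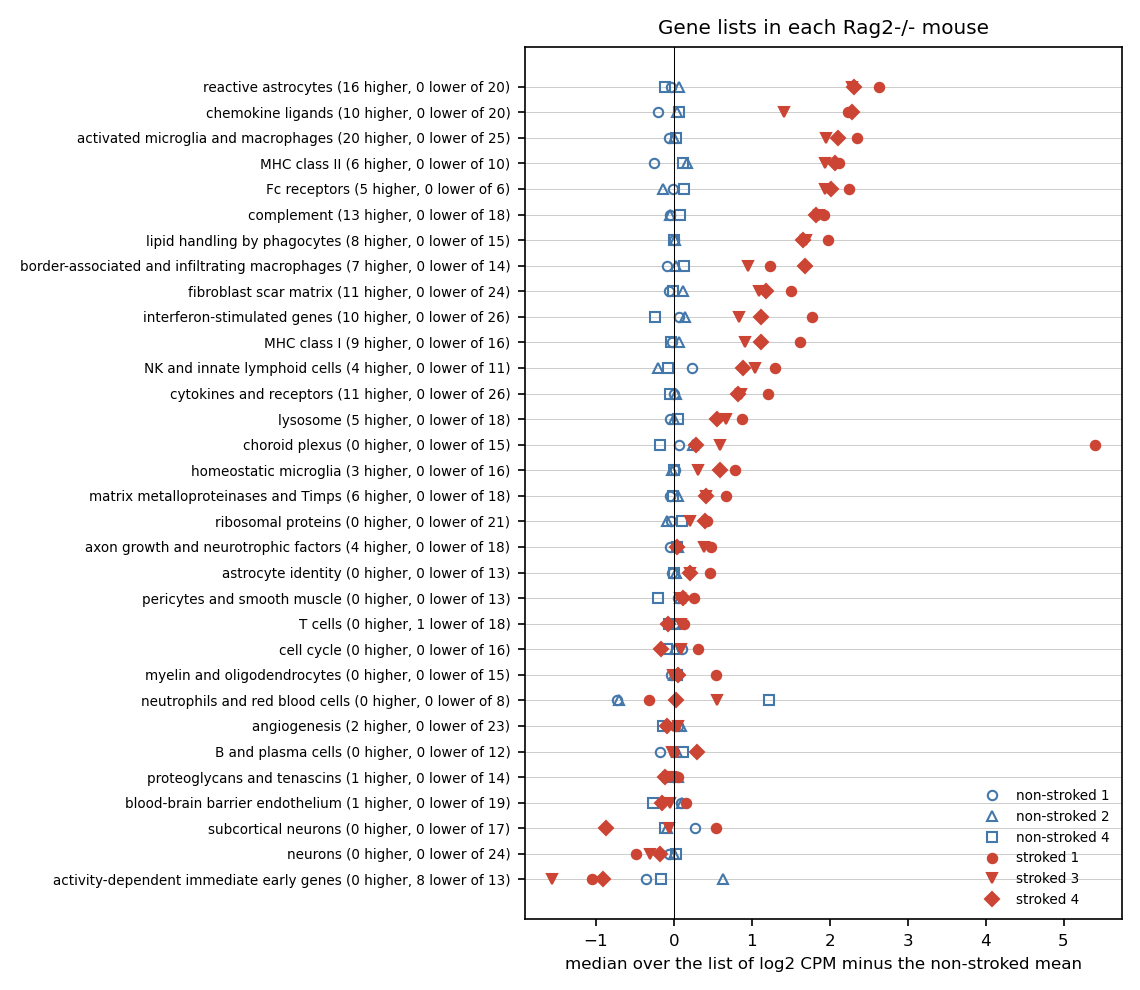
Each symbol is 1 Rag2-/- mouse, with the median over a list of the log2 difference from the non-stroked mean on the x axis and the gene lists on the y axis. The 3 stroked mice lie together at 1.96 to 2.35 for activated microglia and at -1.56 to -0.91 for immediate early genes, whereas for the choroid plexus stroked mouse 1 is at 5.40 and the others at 0.59 and 0.29.

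The response of Rag2-/- mice was set against that of WT mice to ask which changes differ in the absence of T and B cells. No gene (0%) was called for a difference between the responses by edgeR's quasi-likelihood test or by DESeq2, with 713 of 17031 genes at an unadjusted p below 0.05 in edgeR and a smallest adjusted p of 0.95. WT mice had 1152 genes called higher and 92 lower after stroke, from 4 stroked and 4 non-stroked mice, 2 of the stroked mice carrying another prefix in their titles. These larger counts are no test of a difference. The median log2 fold changes of Rag2-/- and WT mice were 2.23 and 2.36 for activated microglia, 2.47 and 2.50 for reactive astrocytes, 1.39 and 1.40 for scar matrix (11 and 17 genes called) and -1.27 and -1.30 for immediate early genes. They lay further apart for genes of border and infiltrating macrophages, at 1.26 and 2.30 with 7 and 13 genes called, for homeostatic microglia, at 0.58 and 0.92 with 3 and 7, and for the choroid plexus, at 3.97 and -0.93 with 0 called in either and 14 of 15 genes at an unadjusted p below 0.05 for the difference, where stroked Rag2-/- mouse 1 stood apart. For interferon-stimulated genes they were 1.39 and 1.66, with 10 and 19 genes called, and for NK and innate lymphoid genes 1.74 and 3.05, with 4 and 9 genes called. For T cell genes they were 0.19 and 1.13, with 0 of the 18 called higher in Rag2-/- and 9 in WT mice. Of the 18, 4 were at or under 3 counts in all 6 Rag2-/- mice, and without them the Rag2-/- median was -0.02. These 4 passed the filter on low counts only through other groups, so a call in Rag2-/- mice was hardly possible for them. No T cell gene was called for the difference.

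The gene with the smallest p for this difference was Il33 (0.000376 unadjusted), which was at 34.8 to 36.1 CPM before and 68.3 to 104 CPM after stroke in Rag2-/- mice and at 37.7 to 48.2 and 54.8 to 62.7 CPM in WT mice (log2 fold changes 1.20 and 0.48). The stroked Rag2-/- mice were thus above the stroked WT mice and the non-stroked Rag2-/- mice below the non-stroked WT mice, and the adjusted p was 0.95. Next came Cops7b, of the COP9 signalosome, with log2 fold changes of -0.19 and 0.34 (unadjusted p = 0.000811, edgeR), and Lat, an adaptor of the T cell receptor, with -0.49 and 1.17 (unadjusted p = 0.00116, edgeR). Lat was at 0.708, 0.821 and 0.54 CPM in non-stroked and 0.373, 0.582 and 0.521 CPM in stroked Rag2-/- mice.

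Against NSG mice, which had 853 genes called higher and 80 lower, 0 genes (0%) were called by edgeR, with 1598 at an unadjusted p below 0.05 and a smallest adjusted p of 0.108. DESeq2 called 14, of which Arc, Dusp1, Egr1, Ier2, Junb and Nr4a1 belong to the immediate early genes described above. The median log2 fold change of these 13 genes was -1.27 in Rag2-/- and 0.81 in NSG mice, and for Arc the single values were -1.78 and 1.04 (unadjusted p of the difference 0.000139, edgeR). Non-stroked Rag2-/- mice had 302 to 843 CPM of Arc and non-stroked NSG mice 112 to 248 CPM, and the stroked mice 80.3 to 222 and 309.5 to 344 CPM, so neither state overlapped between the strains. For Egr1 the log2 fold changes were -1.08 and 0.44, and the stroked groups of the strains overlapped (291 to 350.1 and 315.8 to 467 CPM). Npas4 had negative log2 fold changes in both strains (-1.83 and -0.64). The smallest p belonged to Col26a1, a collagen gene, at 8.48 to 9.85 CPM before and 5.54 to 6.43 CPM after stroke in Rag2-/- mice and 3.0 to 4.33 and 5.26 to 5.94 CPM in NSG mice (unadjusted p = 6.9e-06, edgeR), followed by Dusp6 and Gpr3. NSG mice differ from Rag2-/- mice in background strain, in NK cells and, as the study describes them, in cytokine signalling and innate immunity. These differences cannot be told apart. Without stroked NSG mouse 3 edgeR called 22 genes, without non-stroked Rag2-/- mouse 4 it called 4, and without non-stroked NSG mouse 1 or 2 it called 1.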

How the data were processed

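PolyA RNA of brain tissue was sequenced in 29 libraries made with a stranded TruSeq kit, which the labels do not tie to animals. The authors deposited 1 table of raw counts per gene for each library (25746 genes, 17789044 to 43403413 counts), and the aligner, the counter and the genome build are not given in the sources used here. Whether strand was used in counting is not given either, so genes that overlap or have close copies are uncertain. Of the gene IDs, 25712 were named through GENCODE M21 (GRCm38), and 34 were not.

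Counts were fitted with edgeR 4.0.16 in R 4.3.3 (quasi-likelihood, TMM normalization, filterByExpr by group) in 1 model of all 29 libraries in 8 groups with 21 residual degrees of freedom, which left 17031 genes. Calls needed a p below 0.05 after Benjamini-Hochberg adjustment and a log2 fold change of more than 1 in size. SE is the log2 fold change divided by the square root of F. CPM use TMM-adjusted library sizes. Where all non-stroked mice had 0 counts, folds are bounds over 3 counts per library. Ratios of pooled counts with few counts before stroke carry 95% exact intervals, which cover counting error only, as do the bounds. DESeq2 1.42.0 was the other tool, and the procedure was tested on simulated data. Promoters came from RefSeq (GRCm38.p6), matched by symbol for 12261 of the genes tested.

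The comparison and the gene lists were chosen with earlier results of these data known. Named are the 12 genes with the largest rise or fall among those called, without overlap between groups and with at least 1 CPM in the higher group, up to 6 called members per list, and defining members that did not pass. Other members are examples picked after their values were seen. Counts of replicates differed beyond sampling noise in every pair. Some genes are not reported here.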

Additional observations from a re-analysis of the deposited data

How the results depend on the processing

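The count of 718 genes called higher was 708 with RLE normalization, 694 without a filter on low counts, 610 with a mean of at least 1 CPM, 890 in a fit of the 2 Rag2-/- groups alone, 823 in the Imm2 cohort alone, 829 with DESeq2 and 952 with Ddx3y as a covariate. Without a minimum fold change it was 1142, and with 1 mouse left out it ranged from 373 to 726. The 19 genes called lower became 34 in a fit of the 2 Rag2-/- groups alone, 38 with Ddx3y as a covariate and 260 without a minimum fold change, and 6 to 38 with 1 mouse left out. No gene was called for the difference from WT mice in any of these settings, including each mouse left out (0 to 0). For the difference from NSG mice DESeq2 called 14 genes and leaving out 1 mouse gave 0 to 22, while the other settings gave 0. The cause of these shifts was not tested.

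With the replicate number as a block, which pairs mice 1 and 4 of both groups, 682 genes were called higher, 22 lower and 0 for either difference. Deviations of same-numbered mice correlated at 0.283 and 0.205 and those of other pairs at -0.296 to 0.199. There were only 2 pairs, and the labels give them no shared origin, so the numbers were not taken as a pairing. Klrk1 and Egr2 lost their calls under the block, and no other named gene did. Of the 113 called genes named by rule, 64 kept their call in every setting that tested them, which was 15 settings for 59 and 14 for the other 5. At the depth of these libraries, genes near 0 counts allow only bounds or counting intervals.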
